A study of Mus musculus with 7 samples.

Results

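The replication-dependent histone genes were followed in OT1 CD8 T cells from mouse tumours, as the rows of the gene count tables whose names begin with Hist1h, Hist2h, Hist3h or Hist4h. Of the 53656 gene rows, 69 had such a name, and the 35 with at least 10 counts in at least 3 of 7 libraries are described here as the members. They comprised 5 of 6 rows for the linker histone H1, 5 of 19 for H2A, 13 of 19 for H2B, 3 of 12 for H3 and 9 of 13 for H4. By cluster, 28 of 55 rows belonged to Hist1 on chromosome 13, 3 of 10 to Hist2 on chromosome 3, all 3 to Hist3 on chromosome 11 and the single row to Hist4 on chromosome 6. Of the other 34 rows, 11 had no count in any library. Just inside the rule, 5 rows reached 10 counts in exactly 3 libraries (Hist1h4j, Hist1h4k, Hist1h2bn, Hist1h3f and Hist1h3d), and just outside it, 4 did so in exactly 2 (Hist1h2bf, Hist1h3c, Hist1h4b and Hist1h3a).

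Replication-dependent histone genes supply the histones that package newly copied DNA, and they are transcribed mainly during S phase. Their messages have, as a rule, no poly(A) tail and end just behind a short stem-loop, which the protein Slbp binds and behind which the U7 small nuclear ribonucleoprotein directs the cut. Some of these genes can also give polyadenylated messages that run past the stem-loop to a later poly(A) signal, a form known from cells that have stopped dividing. The libraries were made by priming on poly(A), so the values are those of histone RNA that this priming captured, and the share of all histone message they stand for is unknown.

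OT1 cells carry a transgenic T cell receptor for an ovalbumin peptide. In both groups tumours of B16-OVA-GP61 were their source, and CD8 with the congenic marker CD45.1 was used to sort them. B16-OVA-GP61 is a melanoma line made to express ovalbumin and the GP61 epitope. The groups differed in SMARTA cells, which are CD4 T cells whose transgenic receptor recognises GP61 and which were absent in 4 libraries and present in 3. The labels give no age, sex or host strain, no time after transfer, and not whether each library came from its own animal, and the p-values therefore describe the spread among these libraries, part of which may be technical.

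Libraries held 38092722 to 49438357 counts, and 3 counts, the most a count of 0 allows, corresponded to 0.0607 to 0.0788 CPM (counts scaled to library size), a floor for counting error alone. The CD8 T cell markers were abundant in every library, with a summed 9055 to 11690 CPM without and 11750 to 15150 CPM with SMARTA cells, and Cd4 lay between 0.65 and 8.48 CPM. The list of 4 CD4 T cell genes nevertheless separated the groups, with sums of 38.1 to 94.0 CPM without and 124 to 147 CPM with SMARTA. This came through Cd40lg (25.2 to 66.5 against 90.7 to 113 CPM) and Zbtb7b (7.64 to 22.4 against 25.9 to 45.4 CPM). Cd4 itself overlapped, at 0.65 to 6.57 against 2.29 to 8.48 CPM. Foxp3 overlapped too and leaned the other way, at 2.57, 10.8, 0.63 and 3.71 CPM without and 0, 1.52 and 2.06 CPM with SMARTA. Replicate 1 with SMARTA stood apart by its red cell transcripts: 9 erythroid markers summed to 5062 CPM there, against 10.4 and 239 CPM in the other libraries with SMARTA and 36.9 to 221 CPM without. The same library held 208 CPM of 10 macrophage markers, against 34.7 and 40.7 CPM in its group and 74.6 to 182 CPM in the other. Melanoma markers were highest in replicate 2 without SMARTA, at 61.5 CPM against 6.75 to 16.7 CPM in all others. The sum of the 6 neutrophil markers was lower in every library with SMARTA, at 34.4, 27.0, 2.80 and 3.71 CPM without and 2.23, 0.747 and 2.29 CPM with. Replicates 1 and 2 without SMARTA were far above the rest. Each of the 4 neutrophil markers tested overlapped between the groups when taken by itself. The 6 B cell markers overlapped, at 4.82 to 34.6 CPM without and 12.8 to 63.6 CPM with SMARTA, highest in replicate 1. The part of these transcripts in the results below was not tested, and results are therefore given per library.

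The stem-loop is where the usual message without a poly(A) tail ends, so it is shown first for members that the results turn on. Capitals mark the 16 bases of the stem-loop (6 bases of stem, 4 of loop, 6 of stem) within 30 bases of transcript, read 5′ to 3′ on the strand of the gene from GENCODE transcripts of build GRCm38. The first 4 lines are members whose annotated transcript ends shortly behind the stem-loop, the last 4 members whose annotated transcript runs on.
Hist1h2bj, chr13:22043638-22043653, plus strand: ccaaaGGCTCTTTTCAGAGCCacgcacaat
Hist1h2bm, chr13:21722506-21722521, plus strand: acaaaGGCTCTTTTCAGAGCCactaagcag
Hist1h2bk, chr13:22036300-22036315, plus strand: ccaaaGGCTCTTTTAAGAGCCactaaacca
Hist1h4f, chr13:23551291-23551306, minus strand: tcaaaGGCCCTTTTCAGGGCCacccacttt
Hist1h4d, chr13:23581950-23581965, plus strand: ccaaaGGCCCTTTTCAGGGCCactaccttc
Hist1h4i, chr13:22040966-22040981, minus strand: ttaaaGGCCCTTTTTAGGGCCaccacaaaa
Hist1h1c, chr13:23739512-23739527, plus strand: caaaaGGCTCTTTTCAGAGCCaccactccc
Hist3h2a, chr11:58955172-58955187, plus strand: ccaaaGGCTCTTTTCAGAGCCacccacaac

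A stem-loop of this kind was found in the annotated transcripts of 28 members, 21 to 54 bases behind the stop codon. The form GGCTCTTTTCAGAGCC stood in 15 of them and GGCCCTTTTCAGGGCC in 5, all 5 of them H4 genes. The form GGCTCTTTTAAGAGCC stood in 4. The annotated transcripts of the other 7 members held no match: Hist1h1a, Hist1h1b, Hist1h2bc, Hist1h2bn, Hist1h4k, Hist2h2be and Hist3h2bb-ps. That says only that these letters are not in the annotated stretch.

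The promoters of the 3 members that changed are shown as the 100 bases before the transcript start in RefSeq (GRCm38.p6), 5′ to 3′ on the strand of the gene, together with that of Hist1h2bg, which shares its upstream stretch with Hist1h2ae. Capitals mark the histone octamer ATTTGCAT and the TATA box TATAAA.
Hist1h1b, chr13:21780626-21780725, minus strand: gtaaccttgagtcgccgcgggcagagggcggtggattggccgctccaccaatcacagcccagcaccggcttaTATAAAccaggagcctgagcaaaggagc
Hist1h2bm, chr13:21721944-21722043, plus strand: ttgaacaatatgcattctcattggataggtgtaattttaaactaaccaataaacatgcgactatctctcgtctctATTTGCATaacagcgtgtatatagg
Hist1h2bj, chr13:22043098-22043197, plus strand: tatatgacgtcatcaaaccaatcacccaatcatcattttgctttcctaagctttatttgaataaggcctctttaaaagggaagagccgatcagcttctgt
Hist1h2bg, chr13:23571300-23571399, plus strand: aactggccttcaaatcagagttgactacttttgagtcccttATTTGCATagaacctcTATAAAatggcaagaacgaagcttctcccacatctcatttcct

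A RefSeq promoter, from 250 bases before to 50 bases behind the start, was matched for 59 of the 69 rows and for 30 members. The octamer, searched on both strands, stood in 9 of the 30, in all 5 H2A and 4 of 10 H2B members and in no other class when 1 start was taken per gene, against 1.74% of 32851 promoters of the same length. With a second RefSeq start of Hist1h2be, which holds the octamer, the counts were 10 of 30 members and 5 of 10 H2B members. The matches began at positions -200 to -119 from the start in the H2A and -90 to -25 in the H2B members. The match of Hist1h2ae at -128 and that of Hist1h2bg at -59 are the same bases of their shared stretch, counted for both genes. The counts therefore do not rank the classes. CCAAT, also on both strands, stood in 24 of 30 members against 37.4% of all promoters, and was found in 2 of 8 H4 members and in every matched member of the other classes. TATAAA on the given strand stood in 16 of 30 members against 8.32%. Among the members that changed, CCAAT was found in all 3 promoters, the octamer in that of Hist1h2bm and TATAAA in that of Hist1h1b. A match is a description of letters and not a site of binding.

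With against without SMARTA cells, 3 members were lower and none was higher: the linker histone gene Hist1h1b and the H2B genes Hist1h2bj and Hist1h2bm (edgeR's quasi-likelihood test with a Benjamini-Hochberg adjusted p under 0.05 over 15896 genes). That is 8.57% of the members, while 3.15% of all genes tested were called in either direction, 1.63% as lower and 1.52% as higher. Hist1h2bm had fewer than 10 counts in every library with SMARTA, so it met the rule only through the other group. Among the 16 members with at least 10 counts in all 7 libraries the share called was 6.25%. The 8.57% is therefore not read as a result about the members. With library totals in place of the TMM factors that scaled the libraries, the same 3 members were called, the median over all genes shifted from a log2 fold change of -0.003 to -0.16, and 70.9% of all calls were lower, against 51.8%. The median log2 fold change of the members, with minus without SMARTA, was -0.93 with TMM factors and -1.07 with library totals. All 35 members were tested, and under each scaling 30 of their log2 fold changes were negative and 5 positive.

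In 15 members (42.9%) all 3 libraries with SMARTA lay below all 4 without, against 10.5% of all genes tested, and in no member did they all lie above, against 8.73%. These shares cannot be read as support for a direction over the members, since 9 members had fewer than 10 counts in every library with SMARTA and so met the rule only through the other group. Among the 16 members with at least 10 counts in all 7 libraries, 12 log2 fold changes were negative, 3 members did not overlap and 1, Hist1h1b, was called, with a median of -0.62. At an unadjusted p under 0.05, 15 members were lower and 1 higher, against 9.37% and 9.18% of all genes tested. In bulk libraries, fewer cells of a type and less RNA per cell cannot be told apart.

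**Figure D1:**
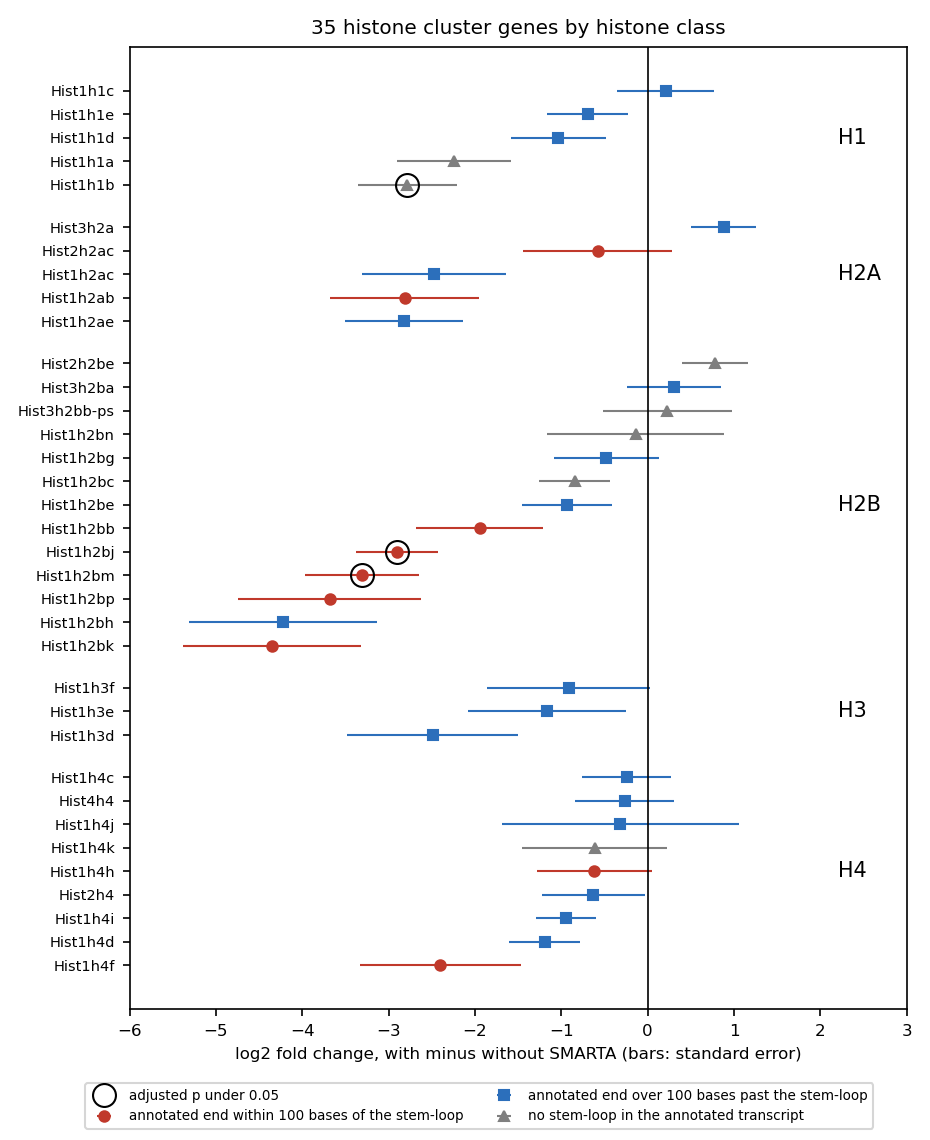
Log2 fold change of each of the 35 members, with minus without SMARTA, on the horizontal axis with its standard error, ordered by histone class. Circles mark the 3 members with an adjusted p under 0.05, Hist1h1b, Hist1h2bj and Hist1h2bm; 30 points lie left of 0 and 5 right of it, and colour and shape give where the annotated transcript ends.

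The calls rested on all libraries being present. Leaving out 1 library at a time, no member passed when the omitted library was replicate 1, 3 or 4 of the group without SMARTA, or replicate 2 or 3 of the group with it. Only Hist1h2bj passed with replicate 2 of the group without SMARTA omitted. With replicate 1 of the SMARTA group omitted, the library with the red cell transcripts, 4 members passed, the same 3 and Hist1h4d. Over these fits the calls among all genes fell to between 17 and 98 in each fit that called no member, against 500 with all libraries.

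Linker histones bind DNA where it enters and leaves the nucleosome. Per length of transcript Hist1h1b was the highest of all members without SMARTA, at a level of 27.7 RPKM (TMM-scaled CPM per kilobase), and stood at 4.02 RPKM with SMARTA, where Hist1h4d was the highest at 9.21 RPKM. Its levels were 38.3, 17.1, 13.3 and 13.5 CPM without and 1.34, 2.99 and 4.65 CPM with SMARTA, in replicate order. The groups did not overlap, and replicate 1 without SMARTA was far above the rest of its group. The mean was 20.5 ± 12.0 CPM (SD, n = 4) without and 2.99 ± 1.66 CPM (n = 3) with SMARTA, a log2 fold change of -2.78 ± 0.57 (SE, edgeR adjusted p = 0.0424), and it lay between -3.26 and -2.33 when libraries were left out. Its raw counts ran from 639 to 1891 without and from 63 to 158 with SMARTA, and none of its 50-base stretches was shared with another histone row.

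Hist1h1a, a second H1 gene of chromosome 13, had 3.44, 1.89, 1.65 and 0.907 CPM without and 0.551, 0.193 and 0.50 CPM with SMARTA. These did not overlap either, but the log2 fold change of -2.24 ± 0.66 missed the threshold (edgeR adjusted p = 0.109). Hist1h1c, Hist1h1d and Hist1h1e encode further somatic H1 subtypes. Hist1h1c had 4.74, 14.5, 5.53 and 4.41 CPM without and 14.5, 6.39 and 4.44 CPM with SMARTA, so that 1 library of each group stood at 14.5 CPM and the others were alike. Its log2 fold change of 0.21 ± 0.56 turned to -0.45 without replicate 1 with SMARTA and to -0.01 without replicate 1 lacking it. Hist1h1d and Hist1h1e had log2 fold changes of -1.03 ± 0.55 and -0.69 ± 0.47 with overlapping groups (edgeR adjusted p = 0.372 and 0.494). Summed over the 5 H1 members, the libraries held 60.9, 53.7, 32.0 and 29.3 CPM without and 28.9, 17.4 and 13.1 CPM with SMARTA, which did not overlap, whereas the sum of the 4 others without Hist1h1b did (15.8 to 36.6 against 8.44 to 27.6 CPM).

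The H2B genes, for a core histone that pairs with H2A, gave the other calls. Hist1h2bj had 2.63, 2.94, 2.74 and 3.38 CPM without and 0.466, 0.458 and 0.235 CPM with SMARTA. The libraries without SMARTA were close together and those with SMARTA were all far lower. The log2 fold change was -2.90 ± 0.47 (edgeR adjusted p = 0.0228), a mean 7.56-fold lower on 130 to 160 against 8 to 22 raw counts. Hist1h2bj was called in 2 of the 7 fits that left out a library, with log2 fold changes of -3.06 to -2.68.

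Hist1h2bm had 2.17, 1.61, 1.59 and 1.18 CPM without and 0.0636, 0.193 and 0.235 CPM with SMARTA. Again no library with SMARTA reached the lowest without. The log2 fold change was -3.31 ± 0.66 (edgeR adjusted p = 0.0407), on raw counts of 56 to 107 against 3, 8 and 8, so the size of the change rests on few reads. Of the 50-base stretches of the transcript, 59.4% in Hist1h2bj and 43.8% in Hist1h2bm also occurred in a transcript of another gene, histone or not, and read pairs that match several places were not counted. The median of this share was 30.1% over the members and 79.7% over the other histone rows.

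A group of H2B genes had still larger ratios on very few counts. They fall outside the rule for named genes and were chosen after their values were seen. Hist1h2bk had 28, 27, 34 and 20 raw counts without and 0, 2 and 1 with SMARTA, a ratio of summed, scaled counts of 23.2 (95% exact interval 7.74 to 114, counting error only). Hist1h2bh had 65, 23, 18 and 17 against 2, 2 and 0 counts, a ratio of 19.7 (7.48 to 73.3), and Hist1h2bp 34, 37, 21 and 19 against 0, 3 and 2 counts, a ratio of 14.2 (5.90 to 44.6). In all of them the groups were apart, and none passed the threshold (edgeR adjusted p = 0.0595, 0.0746 and 0.101). All of them met the rule for members only through the libraries without SMARTA. The ratios, their intervals and the separation are therefore partly set by that rule and are given as description only.

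None of the other 8 H2B members passed the threshold, and 3 of them had a positive log2 fold change. Hist2h2be, whose annotated transcript is 2620 bases long, had 10.2, 5.96, 8.88 and 8.69 CPM without and 22.7, 8.41 and 12.2 CPM with SMARTA, with overlapping groups and the highest value in the library with the red cell transcripts. Its log2 fold change was 0.78 ± 0.38 (edgeR adjusted p = 0.325) and lay between 0.27 and 1.05 when libraries were left out. Hist1h2bc had log2 fold changes below 0 in all these fits, and its groups did not overlap (-0.85 ± 0.41, edgeR adjusted p = 0.313). Hist1h2bb, at -1.95 ± 0.74 (edgeR adjusted p = 0.202), did not overlap either, with 0.413 to 1.5 CPM without and 0.147 to 0.318 CPM with SMARTA. Hist1h2bg stood at -0.48 ± 0.61, Hist1h2be at -0.93 ± 0.52, Hist1h2bn at -0.14 ± 1.02, Hist3h2ba at 0.31 ± 0.54 and the pseudogene Hist3h2bb-ps at 0.23 ± 0.75. The summed H2B level was 21.9 to 26.8 CPM without and 16.8 to 31.3 CPM with SMARTA, and these ranges overlapped.

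**Figure D2:**
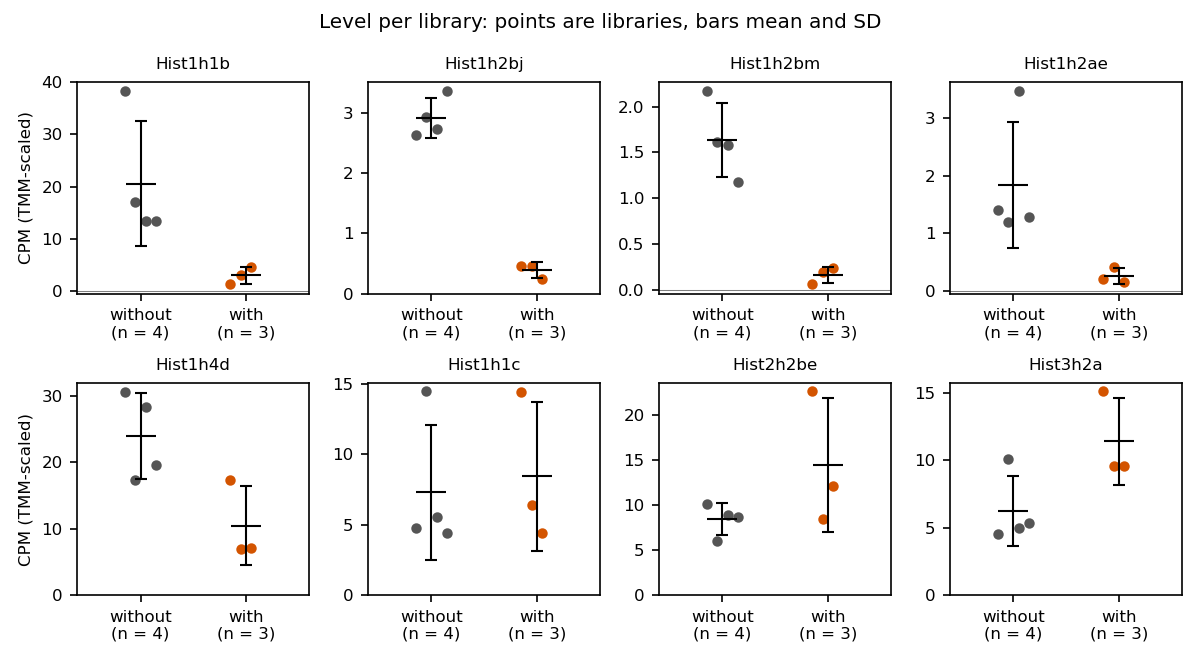
TMM-scaled CPM per library (vertical axis, linear, own scale in each panel) of 8 members, with each library as a point and the mean and SD as bars (n = 4 without, n = 3 with SMARTA). Hist1h1b, Hist1h2bj, Hist1h2bm and Hist1h2ae have no overlap between groups, whereas Hist1h4d, Hist1h1c, Hist2h2be and Hist3h2a overlap.

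H2A is the partner of H2B in the nucleosome, and all 19 H2A rows shared exon bases with another row of the tables, so pairs falling there were not counted. Hist1h2ae had 1.40, 1.20, 3.47 and 1.29 CPM without and 0.212, 0.410 and 0.147 CPM with SMARTA. The groups did not overlap, and replicate 3 without SMARTA was the highest by far. Its log2 fold change of -2.83 ± 0.68 lay just outside the threshold (edgeR adjusted p = 0.0625). Hist1h2ab, at -2.81 ± 0.86 (edgeR adjusted p = 0.120), rested on 12 to 28 counts without and 1 to 3 with SMARTA. It thus met the rule only through the libraries without SMARTA. Hist1h2ac stood at -2.47 ± 0.84.

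Hist3h2a went the other way. Its levels were 4.50, 10.1, 4.98 and 5.32 CPM without and 15.2, 9.57 and 9.58 CPM with SMARTA, and replicate 2 without SMARTA lay among the libraries with it. The log2 fold change of 0.88 ± 0.38 did not pass (unadjusted p = 0.0452, edgeR adjusted p = 0.256), stayed positive with each library left out (0.60 to 1.21), and 33.0% of its exon bases are shared with another row. Hist2h2ac stood at -0.58 ± 0.86. Because Hist3h2a held most of the reads of its class, the summed H2A level was higher on average with SMARTA, 12.2 ± 3.48 CPM against 9.74 ± 2.23 CPM, with overlap.

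H3 and H4 form the core tetramer of the nucleosome. The 3 H3 members were among the lowest per length, at 0.140 to 0.279 RPKM over all libraries, with a summed 0.851, 0.914, 0.935 and 0.654 CPM without and 0.445, 0.289 and 0.176 CPM with SMARTA. These sums did not overlap. Hist1h3d and Hist1h3f met the rule only through the libraries without SMARTA. The separation of the H3 sums is therefore partly set by the rule and is given as description only. The log2 fold changes were -2.49 ± 0.99 for Hist1h3d, -1.16 ± 0.91 for Hist1h3e and -0.92 ± 0.95 for Hist1h3f, none of them called (edgeR adjusted p of 0.220, 0.563 and 0.679).

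Hist1h4d held the most reads of any member over all libraries, with a mean of 24.0 ± 6.53 CPM (SD, n = 4) without and 10.5 ± 5.98 CPM (n = 3) with SMARTA. Its levels were 30.7, 17.3, 28.4 and 19.6 CPM without and 17.4, 6.96 and 7.09 CPM with SMARTA. Replicate 1 with SMARTA just reached the lowest library without, and the other libraries with SMARTA lay far below. The log2 fold change was -1.19 ± 0.41 (edgeR adjusted p = 0.165), and -1.78 with an adjusted p of 0.0264 without replicate 1 with SMARTA. Hist1h4i had 3.51, 5.33, 4.33 and 5.59 CPM without and 2.61, 2.55 and 2.12 CPM with SMARTA, which did not overlap (-0.95 ± 0.35, adjusted p = 0.186).

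Among the other H4 members, Hist1h4f stood at -2.40 ± 0.93 without overlap between groups, on 12 to 64 against 2 to 8 counts. It met the rule only through the libraries without SMARTA, as did Hist1h4k. Hist2h4 at -0.63 ± 0.59, Hist1h4h at -0.62 ± 0.66, Hist1h4k at -0.61 ± 0.84, Hist1h4j at -0.32 ± 1.37, Hist4h4 at -0.27 ± 0.57 and Hist1h4c at -0.24 ± 0.52 all had standard errors as large as the change or nearly so. The log2 fold changes of Hist4h4 and Hist1h4c turned to 0.16 and 0.02 without replicate 2 with SMARTA. That of Hist1h4j ran from -4.22 to 0.20 when libraries were left out. All 9 H4 values were negative in the full comparison and none was called.

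The composition of the captured histone reads differed between the groups. Summed over all 35 members, the libraries held 146, 126, 112 and 94.5 CPM without and 111, 57.9 and 58.0 CPM with SMARTA, so that replicate 1 with SMARTA reached into the other group. The Hist1 cluster summed to 119, 97.4, 89.2 and 72.9 CPM without and 59.9, 34.6 and 28.8 CPM with SMARTA, without overlap. This separation held without Hist1h1b (59.4 to 81.1 against 24.2 to 58.6 CPM). Both Hist1 sums include members that met the rule only through the libraries without SMARTA. The Hist2, Hist3 and Hist4 sums overlapped, at means of 13.1 ± 2.58, 8.79 ± 3.73 and 3.10 ± 0.935 CPM without and 17.5 ± 9.46, 14.6 ± 3.79 and 2.58 ± 1.92 CPM with SMARTA. Hist1h1b made up 17.2% of the summed reads without and 3.95% with SMARTA, while Hist2h2be made up 7.03% and 19.1% and Hist3h2a 5.20% and 15.1%.

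The position of the annotated end relative to the stem-loop divided the members further. The boundary of 100 bases was set after the values were seen, and no member lay between 57 and 151 bases. In 9 members the annotated transcript with the stem-loop ended within 100 bases of it: Hist1h2ab, Hist1h2bb, Hist1h2bj, Hist1h2bk, Hist1h2bm, Hist1h2bp, Hist1h4f, Hist1h4h and Hist2h2ac. Hist1h2bp also has an annotated transcript without a stem-loop. Its counted row runs to chr13:21789213, well past the stem-loop end at 21787938, so its reads need not come from the shorter transcript. All 9 log2 fold changes were negative, with a median of -2.81, 7 did not overlap and 2 were called. Of these 9, 5 had fewer than 10 counts in every library with SMARTA and so met the rule only through the other group, which bears on their signs and median, and the median of the other 4 was -1.28. The summed level of all 9 was 9.30, 9.53, 8.86 and 7.51 CPM without and 2.46, 1.69 and 1.35 CPM with SMARTA. The libraries of a group lay close together and the groups far apart, also without Hist1h2bj (4.13 to 6.67 against 1.12 to 1.99 CPM). Both sums include the 5 members that met the rule only through the libraries without SMARTA. The separation of the sums is therefore partly set by the rule and is given as description only.

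In 19 members the annotated transcript ran more than 100 bases past the stem-loop, and in 11 of them a poly(A) signal, AATAAA, followed it, as in none of the 9. The search covered only these annotated bases, 151 to 4884 in the 19 and 11 to 57 in the 9. The lack of a signal in the 9 thus follows largely from how they were defined. The median log2 fold change of the 19 was -0.92, 5 did not overlap, 3 values were positive and none was called. Without the 3 that met the rule only through the libraries lacking SMARTA, the median was -0.66. The summed level was 81.8, 88.0, 75.5 and 60.7 CPM without and 81.1, 43.0 and 37.5 CPM with SMARTA. Replicate 1 with SMARTA was as high as the libraries without, and the other libraries with SMARTA were below all of them. The 7 members without a stem-loop in the annotation had a median of -0.61 and overlapping sums of 26.3 to 55.2 CPM without and 13.2 to 27.8 CPM with SMARTA.

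Level differed between these kinds of member too. Of the 9 members that ended at the stem-loop, 8 lay at or below the median mean CPM of the members. Their median was -2.61 on the log2 scale, and the 7 longer members in that range had a median of -1.16. Above the median level, Hist1h2bj was the only member ending at the stem-loop, at -2.90, and 12 longer members had a median of -0.66. The difference between the kinds of member was not tested, nor were the parts of level, the count minimum of the rule, class and sequence sharing in it.

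**Figure D3:**
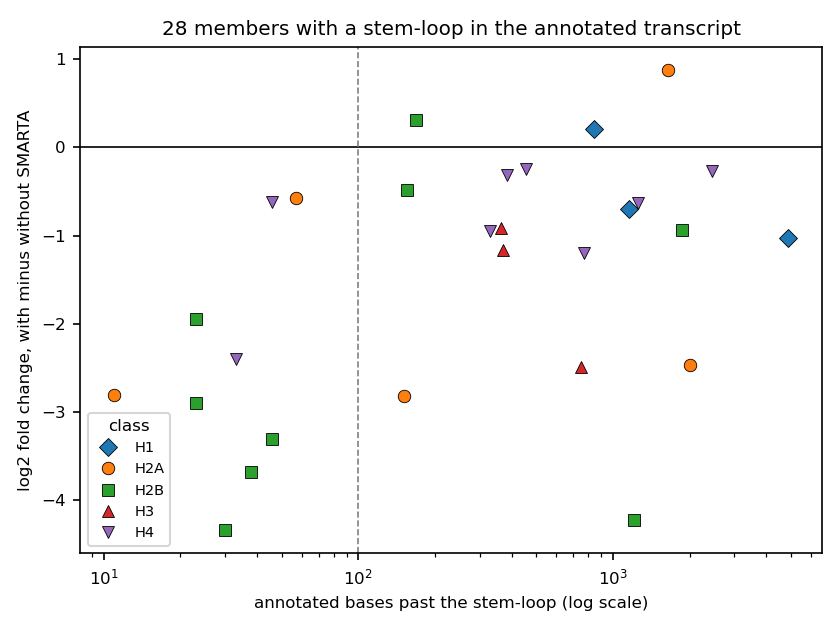
Log2 fold change, with minus without SMARTA (vertical axis), against the number of annotated bases behind the stem-loop (horizontal axis, log scale) for the 28 members with a stem-loop, by histone class. Left of the dashed line at 100 bases all 9 members are negative with a median of -2.81, 5 of them members only through their counts without SMARTA; right of it 19 members have a median of -0.92 and spread from -4.22 to 0.88.

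**Figure D4:**
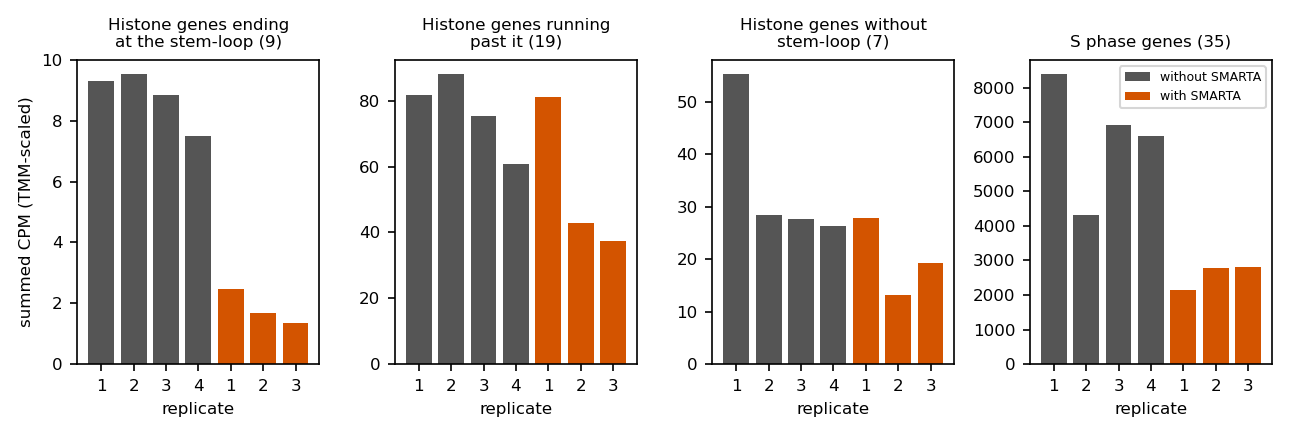
Summed TMM-scaled CPM (vertical axis, linear from 0, own scale in each panel) in each library for the 9 members ending at the stem-loop, the 19 running past it, the 7 without one and 35 S phase genes. The 9 members and the S phase genes separate the groups, at 7.51 to 9.53 against 1.35 to 2.46 CPM and 4309 to 8385 against 2143 to 2821 CPM, whereas the sums of the other kinds overlap. Of the 9 members, 5 met the rule only through their counts without SMARTA.

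On chromosome 13 the Hist1 rows lay in 2 blocks. The first, chr13:21715763-22043676, held 9 members and all 3 calls. Its median log2 fold change was -2.78, with 6 members that did not overlap and 9 negative values. The second, chr13:23531050-23934851, held 19 members and no call, with a median of -1.16, 9 members without overlap and 18 negative values. In the first block 4 members and in the second 5 met the rule only through the libraries without SMARTA, and without them the medians were -0.95 and -0.98, so that the gap between the medians of the blocks rested on these members.

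H2A and H2B genes often lie head to head and share the stretch between their starts. Of 14 such pairs in the tables, with starts at most 600 bases apart, 4 had a member on both sides. Hist1h2ae and Hist1h2bg, 176 bases apart, stood at -2.83 and -0.48, and Hist1h2ac and Hist1h2bc, 251 bases apart, at -2.47 and -0.85. Hist2h2ac and Hist2h2be stood at -0.58 and 0.78 and Hist3h2bb-ps and Hist3h2a at 0.23 and 0.88. The standard errors of these values ran from 0.38 to 0.86, and the differences between partners were not tested.

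Genes that act on histone messages and histones were read from lists alongside. Of 28 tested factors of histone message processing and decay, 1 was lower and none higher (2 at an unadjusted p under 0.05, and 1 with DESeq2), and the median was -0.42 on the log2 scale. That is 3.57% of the list, near the 3.15% of all genes tested. The called gene was Srrt, a cap-binding partner that links capped messages to 3′ end processing, with 169, 117, 174 and 167 CPM without and 87.1, 72.8 and 57.8 CPM with SMARTA (-1.11 ± 0.23, edgeR adjusted p = 0.0421). Slbp, named after its values were seen because it binds the stem-loop, had 355 to 426 CPM without and 258 to 300 CPM with SMARTA, which did not overlap and did not pass (-0.49 ± 0.16, edgeR adjusted p = 0.150).

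Of 10 tested histone genes that are expressed independently of replication and give polyadenylated messages, 1 was lower, none was higher (1 at an unadjusted p under 0.05, 0 with DESeq2) and the median log2 fold change was -0.03. The call is 10.0% of the list, beside 3.15% of all genes tested, but rests on 1 gene. Cenpa, the histone H3 variant of the centromere, had 224, 269, 405 and 343 CPM without and 66.5, 85.5 and 90.6 CPM with SMARTA (-1.94 ± 0.25, edgeR adjusted p = 0.0155). H3f3a and H3f3b, which encode the replacement histone H3.3, stood at -0.05 ± 0.19 and 0.11 ± 0.19, and H2afz, for the variant H2A.Z, at -1.14 ± 0.28 (edgeR adjusted p = 0.0632); these 3 were named after their values were seen.

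Of 26 histone chaperones and deposition factors, 1 was lower and 1 higher, with a median log2 fold change of -0.57. The calls are 7.69% of the list, beside 3.15% of all genes tested, 1.63% as lower and 1.52% as higher. With 1 gene in each direction, the share is not read as a result about the list. Asf1b, which hands newly made H3 and H4 to the replication machinery, had 347, 134, 237 and 213 CPM without and 34.9, 62.5 and 86.4 CPM with SMARTA (-1.93 ± 0.40, edgeR adjusted p = 0.0429). Daxx, which deposits H3.3 independently of replication, had 146, 159, 141 and 153 CPM without and 309, 269 and 372 CPM with SMARTA (1.08 ± 0.17, edgeR adjusted p = 0.0206). Neither gene overlapped between the groups.

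Histones are made in S phase, and genes of that phase were read in the same way. Of 35 genes 14 were called lower and none higher (0 also at an unadjusted p under 0.05 and with DESeq2), 34 log2 fold changes were negative and 27 genes lay lower without overlap. The calls are 40.0% of the list beside 1.63% of all genes tested called lower, and the genes without overlap 77.1% beside 10.5%. The median was -1.41, beside -0.003 for all genes tested and -0.93 for the histone members. The 4 with the smallest p were Gins1, of the replicative helicase complex (-2.58 ± 0.39, edgeR adjusted p = 0.0189), the ribonucleotide reductase subunit Rrm2 (-2.55 ± 0.43, adjusted p = 0.0257) and the helicase subunits Mcm5 (-1.84 ± 0.33, adjusted p = 0.0294) and Mcm7 (-1.51 ± 0.27, adjusted p = 0.0303). The sum over all 35 genes was 8385, 4309, 6911 and 6609 CPM without and 2143, 2767 and 2821 CPM with SMARTA. Replicate 1 with SMARTA was thus the lowest library for S phase transcripts and the highest of its group for the summed histone members, and the cause of that difference was not tested.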

How the data were processed

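The 7 libraries were grouped by title, 4 without and 3 with SMARTA. Per the labels' protocols, 6 to 15 ng of RNA were amplified over 12 cycles with SMART-seq V4 and sequenced as 50 base pairs from both ends. The submitters' processing notes name the build GRCm38.p6, featureCounts 1.6.2 and STAR 2.6.0c. The deposited values are raw counts: per the file headers, read pairs were counted by gene name on GENCODE M17 exons, with no strand option and with the defaults that leave out pairs matching several places or genes. The file headers also give the gene length that was used for RPKM.

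From the counts, genes were kept by filterByExpr (minimum count 10, minimum total 15), scaled with TMM and compared with edgeR 4.0.16 in R 4.3.3 (robust quasi-likelihood test, two-sided, Benjamini-Hochberg adjusted p under 0.05). The dispersion over all genes was 0.28 (coefficient of variation 0.529). Each standard error is the fold change divided by the root of its F, and the procedure was tested on simulated data. Libraries of a group differed by far more than sampling noise. Sums over members were described without a test, since the members and lists were chosen with earlier results of these data known. Stem-loops were read from GENCODE M21 transcripts and promoters from RefSeq tables; protein sequences were not used here. Named by rule were called members, the 20 with the highest mean RPKM, all H1, Hist3 and Hist4 members, the 2 with the smallest p of each class, and up to 4 called genes of each related list. The remaining members, and those stated in the text, were named after their values were seen. The alternatives were other scalings, filters and tools (DESeq2 1.42.0, limma-voom with limma 3.58.1), a block for the replicate number, and leaving out each library in turn.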

Additional observations from a re-analysis of the deposited data

Results flagged for a closer look

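In groups of 4 libraries a single value was marked when its gap to the nearest other exceeded the 95% critical value of Dixon's test, which chance does in about 1 of 20 groups. Of 55 groups tested, 6 were marked. Each was in the 4 libraries without SMARTA, since the group with SMARTA was too small for the rule. Hist1h1b stood at 38.3 CPM in replicate 1, and the summed level of the members without a stem-loop, of which Hist1h1b is part, at 55.2 CPM in the same library. In replicate 2, Hist1h1c stood at 14.5 CPM and Hist3h2a at 10.1 CPM, above the rest of the group, and Srrt at 117 CPM, below it. Hist1h2ae stood at 3.47 CPM in replicate 3. Replicate 2 is also the library with the most melanoma marker reads and the lowest S phase sum of its group, and the part of either in these values was not tested.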

How the results depend on the processing

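Relative log expression and upper-quartile scaling and a fit without robust estimation kept every count of calls given for the members and lists. The 3 members called as lower became 1 (Hist1h1b) with a filter of at least 5 CPM in 3 libraries, which left 6 members, 1 among members with 10 counts in all 7 libraries, 10 with DESeq2, 2 with limma-voom (Hist1h2bm had an adjusted p of 0.06), 0 with the replicate block and 0 to 4 with libraries left out. Leaving out libraries gave 0 to 1 lower and 0 to 1 higher for processing factors, 0 to 2 lower for replication-independent histones, 0 to 3 lower and 0 to 1 higher for chaperones and 0 to 14 lower for S phase genes. The replicate block gave 0 calls for each list and for all genes. Same-numbered libraries did not deviate together (correlations -0.139, 0.0263 and -0.274, beside -0.0862 to 0.254 for different numbers). So few libraries cannot exclude a pairing by number. DESeq2 called 3 lower and 1 higher processing factors, 2 replication-independent histones, 8 chaperones and 25 S phase genes as lower. Replication-independent histones called as lower were also 2, and chaperones 5, 2 and 6, with library totals, no filter and the CPM filter, and chaperones 2 with limma-voom. No member was called higher under any setting. The summed level without SMARTA was 95.7 CPM without Hist1h4d. Among the 33 genes followed singly, only uncalled ones reversed. With libraries left out the log2 fold change ran from -1.03 to 0.158 for Hist4h4, -0.926 to 0.0175 for Hist1h4c and -0.00925 to 0.629 for Hist3h2ba. It ran from -0.418 to 0.590 for Hist3h2bb-ps and from -0.445 to 0.786 for Hist1h1c. Hist3h2bb-ps stood at -0.0174 under the block. Outside the 33, the uncalled members Hist1h4j and Hist1h2bn also reversed, from -4.22 to 0.204 and from -0.609 to 0.051. The cause was not tested. Of 506 values of 33 single genes, 427 kept direction and call, 67 lost the call, 5 gained it and 7 reversed. With library totals the H4 sums and those of members without a stem-loop no longer overlapped. Members with few counts with SMARTA limit what can be resolved.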
